A study of Mus musculus with 11 samples.

Results

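Colon mucosal cells taken 9 and 12 days after the start of dextran sulfate sodium (DSS) were set against cells of the uninjured colon, one annotated cell type at a time. The cells are those of 3 single-cell RNA libraries whose cell type, in the authors' cell table, held at least 20 cells in each library. That kept 6734 of the 10519 cells of these libraries, of which 1612 were uninjured, 2799 came from day 9 and 2323 from day 12. They belong to 11 of the 28 types annotated in these libraries. The whole series as used here holds 55603 cells in 11 libraries.

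All mice of these groups were wild type and about 2 months old. The uninjured mice received no DSS. The other mice drank 3% DSS for 6 days and were then left to recover until day 9 or day 12, counted from the first day of DSS. Each library pooled cells of 8 mice, was stored frozen and belonged to batch A of the cell table, so storage and batch did not differ between the groups. With 1 library in a group there is no replicate, and no test between groups could be made. A gene is called here when its level differed at least 4-fold from the uninjured library, and called alike when it did so in one direction on both days. Intervals are exact 95% intervals that cover counting error only, not the spread between mice. Both days are set against the same uninjured library, so agreement between them is not independent support.

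DSS is a detergent-like polysaccharide that strips the colonic epithelium and lets bacteria reach the mucosa. Neutrophils and monocytes then enter, fibroblasts release growth factors and cytokines, and the surviving crypt cells close the wound. The types compared span that scene: fibroblasts and blood endothelium of the stroma, 4 kinds of epithelial cell, macrophages, B cells, plasma cells and T cells.

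The libraries differed in make-up and depth. The uninjured library held 1820 cells and 9073680 unique molecular identifiers (UMIs, 1 per captured transcript), the day 9 library 4596 cells and 17237419 UMIs, and the day 12 library 4103 cells and 13375158 UMIs. The median cell had 12.8%, 4.91% and 6.80% of its UMIs on mitochondrial genes in that order, so levels are given as counts per 1000000 non-mitochondrial UMIs of a type (CPM). Pairs of libraries shared 17 to 41 cell barcodes, of which 3 to 14 had the same type in both. Defining genes of the named types were found where the labels put them: Epcam stood at 2624, 2519 and 2882 CPM in Crypt-2 cells and Cd79a at 2654, 2556 and 2291 CPM in B cells. The genes that give the fibroblast types their names moved less evenly. Pi16 read 1483, 376 and 1163 CPM and Pcolce2 771, 116 and 196 CPM in Pi16/Pcolce2 fibroblasts in the uninjured, day 9 and day 12 libraries.

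The composition of the libraries turned from stromal and epithelial to immune. Stromal cells made up 48.9% of the uninjured library, 10.7% on day 9 and 11.0% on day 12, and epithelial cells 40.3%, 8.27% and 9.21%. Immune cells went from 10.8% to 81.0% and 79.7%. Neutrophils, the phagocytes that first reach injured tissue, were 0 of 1820 uninjured cells (a count of 0 leaves room for at most 0.165%) and 34.3% of cells on day 9 (32.9 to 35.7) and 38.6% on day 12 (37.1 to 40.1). Macrophages went from 3.46% to 31.6% and 24.0%. The most abundant uninjured type, Pi16/Pcolce2 fibroblasts, was 32.5% of uninjured cells (30.4 to 34.7), 5.09% on day 9 (4.47 to 5.77) and 6.34% on day 12 (5.61 to 7.13). Goblet cells, the mucus makers, were 3.46%, 0.348% and 0.244% and left too few cells for a comparison. Per the labels' protocols, dead cells were removed by Annexin V and red cells were lysed before loading, and these steps can set shares.

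Within their own compartment several types shifted less, or the other way. Crypt-2 cells were 9.29%, 2.65% and 2.71% of all cells but 23.0%, 32.1% and 29.4% of epithelial cells. Car4 colonocytes were lower on both scales, going from 12.9% to 1.02% and 1.63% of all cells and from 31.9% to 12.4% and 17.7% of epithelial cells. B cells went from 2.91% to 5.90% and 7.90% of all cells while their part of the immune cells went from 27.0% to 7.28% and 9.90%. Fewer cells of one kind and more of another cannot be told apart in shares.

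**Figure D1:**
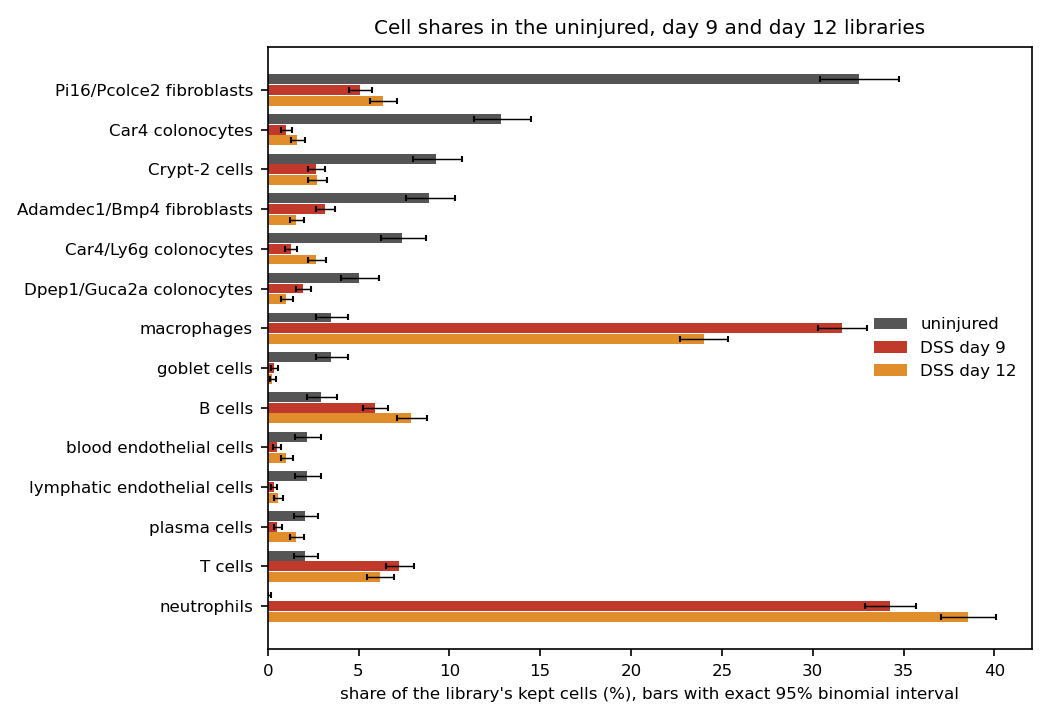
Share of each library's cells (%, bars from 0 with exact 95% binomial intervals) for the 11 compared types and for neutrophils, goblet cells and lymphatic endothelial cells, in the uninjured, day 9 and day 12 libraries. Neutrophils stand at 0, 34.3% and 38.6%, and Pi16/Pcolce2 fibroblasts at 32.5%, 5.09% and 6.34%.

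Transcripts that mark neutrophils were read in every type after DSS. The summed level of 7 neutrophil markers ranged over the 11 types from 0 to 172 CPM (median 6.25) in the uninjured library, 3253 to 13374 CPM (median 5287) on day 9 and 2803 to 10100 CPM (median 6266) on day 12. In the neutrophils themselves the same sum was 276305 and 305205 CPM. The genes called higher in the most types were S100a8 and S100a9, the subunits of calprotectin, with Retnlg, Wfdc17 and Il1b, each called in 11 of 11 types. S100a8 had a median over types of 1.59, 2795 and 3568 CPM, against 161289 and 183175 CPM in neutrophils. Il1b, which encodes interleukin 1 beta, had a median of 4.17, 526 and 518 CPM against 13198 and 12107 CPM in neutrophils. Of the 11 types, macrophages alone held Il1b at or above the level of all other cells of their library, at 2088, 9594 and 8378 CPM. The chemokine Cxcl2 was called in 9 of 11 types, Ifitm1 and the protease inhibitor Slpi in 8 of 10, Ccl4 in 6 of 8 and the haemoglobin binder Hp in 6 of 7.

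Since neutrophil markers were read in every type, the leading rises and falls of each type below are genes at or above the level of all other cells of the same library, in both DSS libraries for a rise and in the uninjured library for a fall. Members of gene lists are named whatever their level in other cells, and those that stood below it are pointed out for the lists compared. The part of RNA from other cells in the remaining calls was not tested.

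Genes called higher in many types that also passed this condition were fewer. Ly6a, the surface protein Sca-1, was called higher in 6 types and held at or above other cells in 5 of them. Genes called lower in the most types were Sycn and Tppp3 (5 types), Car1, Fabp2, Gsn and Klk1 (4 types) and Ces2a, Dbp, Guca2a and Hspa1a (3 types). Sycn, Car1, Fabp2, Klk1, Ces2a and Guca2a are epithelial genes. The epithelial signal in non-epithelial cells was lower after DSS too: the sum of 14 columnar epithelial markers was 2765, 557 and 852 CPM in T cells and 2803, 811 and 977 CPM in B cells.

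In all, 739 pairs of gene and type were called higher on both days (423 genes, 286 of them in 1 type) and 294 were called lower (244 genes, 214 of them in 1 type). No gene measurable in a type was called in opposite directions on the 2 days.

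**Figure D2:**
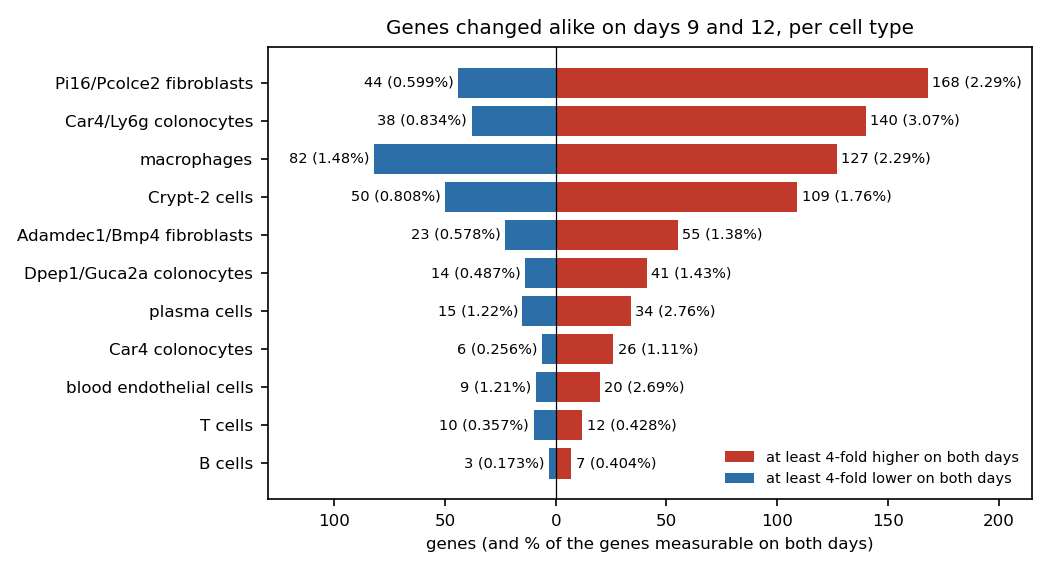
Number of genes at least 4-fold higher or lower than the uninjured library on both days in each type, with the percentage of the measurable genes beside each bar. Pi16/Pcolce2 fibroblasts have the most higher calls (168) and macrophages the most lower calls (82).

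Pi16/Pcolce2 fibroblasts are connective tissue cells marked by the peptidase inhibitor Pi16. They called 168 genes higher and 44 lower among 7349 measurable genes, which is 2.29% and 0.599%. The median of all measurable genes moved by -0.14 and -0.03 on the log2 scale on days 9 and 12. Their leading rise was Saa3, a serum amyloid A protein of the acute phase, and secreted signals for neutrophils and epithelium rose with it. Saa3 read 0.396 CPM in the uninjured library, from 1 UMI, 10511 CPM on day 9 and 4088 CPM on day 12. The ratios were 26515 (4758 to 1047360) and 10313 (1850 to 407439). All other cells of the same libraries held Saa3 at 2.17, 2878 and 807 CPM. The Saa3 level of the fibroblasts was thus above that of the other cells on both days, and above that of neutrophils, at 1067 and 907 CPM. Saa3 shares sequence with the other Saa genes, and reads of near-identical copies are uncertain.

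The sequences upstream of Saa3 and of Clca4b are shown because these genes gave the largest ratios among the named genes of the Pi16/Pcolce2 fibroblasts and the Car4/Ly6g colonocytes, and motifs that inflammatory transcription factors bind were searched there. Both come from the RefSeq table for build GRCm38.p6, lie on the minus strand and are written 5′ to 3′ towards the annotated start. The Saa3 stretch, chr7:46715701-46715926, holds 226 bases and leaves out the 24 bases nearest the table's start, which overlap an annotated start. Capitals mark a match to the interferon-stimulated response element (ISRE) at bases 126 to 135 and a match to the C/EBP letters TTGCNNAA, read on the other strand, at bases 152 to 159. The Clca4b stretch is chr3:144932530-144932779 and holds no match to the motifs searched.
Saa3: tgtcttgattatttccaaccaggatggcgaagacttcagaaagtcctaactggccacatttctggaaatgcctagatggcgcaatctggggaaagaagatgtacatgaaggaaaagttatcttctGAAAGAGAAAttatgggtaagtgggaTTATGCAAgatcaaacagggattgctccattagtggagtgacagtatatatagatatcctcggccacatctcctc
Clca4b: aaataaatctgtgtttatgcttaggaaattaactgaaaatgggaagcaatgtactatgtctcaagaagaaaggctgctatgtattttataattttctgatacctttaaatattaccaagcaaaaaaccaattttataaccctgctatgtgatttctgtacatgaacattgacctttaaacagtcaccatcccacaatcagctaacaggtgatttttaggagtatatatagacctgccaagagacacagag

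Both strands of the 250 bases before the start were searched for 4 motifs in all 27025 genes of the table. An NF-kB motif was in 7.01% of them, the C/EBP letters TTGCNNAA in 9.55%, the STAT letters TTCNNNGAA in 7.18% and the ISRE in 3.04%. Of the 60 genes named for a rise, 44 matched the table, and 9 held the NF-kB motif, 10 the C/EBP letters, 3 the STAT letters and 5 the ISRE. Of the 60 named for a fall, 46 matched, with 6, 9, 1 and 2 in that order. A match describes the letters in this window and is not a binding site.

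Chemoattractants and cytokines made by the Pi16/Pcolce2 fibroblasts came next. Cxcl5, a chemokine that draws neutrophils, was 0.793 CPM uninjured, 1024 on day 9 and 248 on day 12, with other cells at 151 and 37.3 CPM on the DSS days. Csf3, the granulocyte growth factor G-CSF, was not read in the uninjured fibroblasts and reached 141 and 65.8 CPM, at least 119-fold and 55.3-fold higher. Csf3 was also read in neutrophils, at 157 and 42.9 CPM. The cytokine Il6 went from 94.0 to 1491 and 1079 CPM, and Lif from 3.96 to 266 and 93.7 CPM. Ereg, an epidermal growth factor receptor ligand, rose from 1.98 to 378 and 123 CPM, 191-fold (81.1 to 591) and 62.3-fold (26.1 to 195). Of 10 measurable interleukin 6 family and growth factor genes 7 were called higher, with median log2 ratios of 3.94 and 3.88. Of these, Il6, Il11, Lif, Csf3 and Ereg stood at or above other cells. For 10 neutrophil and monocyte chemoattractants 6 were called higher (medians 4.67 and 3.67), and Cxcl5 and Ccl8 of those stood at or above other cells.

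Signals of the crypt niche moved in the same fibroblasts. Grem1, a secreted blocker of bone morphogenetic protein, Rspo1, a Wnt amplifier, and Sfrp1, a Wnt-binding protein, were called higher, and each stood above other cells. Rspo1 read 2.77, 27.3 and 21.6 CPM. Sfrp1 read 354, 3192 and 2486 CPM, 9.02-fold (8.38 to 9.71) and 7.02-fold (6.51 to 7.58). Grem1 read 49.2, 650 and 734 CPM.

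Matrix genes moved less. Of 15 fibrillar matrix genes 3 were called higher, with median log2 ratios of 1.58 and 1.71. Tnc, the wound protein tenascin C, went from 19.4 to 343 and 448 CPM, the collagen cross-linker Lox from 34.5 to 526 and 360 CPM, and basement membrane collagen Col4a1 from 258 to 1209 and 1118 CPM. The abundant collagen Col1a1 stayed under 4-fold, at 2658, 8522 and 9572 CPM.

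Other named rises in Pi16/Pcolce2 fibroblasts have less familiar roles in the gut. The cell adhesion molecule Chl1 was absent from the uninjured counts and read 294 and 238 CPM, at least 247-fold and 200-fold higher. Serpina3m, a protease inhibitor with near-identical copies, was at 0, 140 and 97.3 CPM. Adamts15, a matrix protease, read 0.396, 80.1 and 79.3 CPM, and the metal reductase Steap4 2.77, 199 and 152 CPM. Arxes2, which also has a near-identical copy, read 2.38, 92.8 and 91.0 CPM.

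Falls in the same fibroblasts took in enzymes and signalling genes. Inmt, a methyltransferase for indole amines, was the most abundant of them and read 578, 50.3 and 60.4 CPM, 11.5 times lower (8.86 to 15.2) and 9.57 times lower (7.49 to 12.4). Qpct, an enzyme that caps peptides, read 255, 23.8 and 31.5 CPM. The neuropeptide co-receptor Ramp1 went from 146 to 17.0 and 23.4 CPM, and Pthlh, a parathyroid hormone-like signal, from 33.7 to 2.56 and 5.41 CPM. The other named falls were Stmn4, Lims2, Efhd1, Igf2bp3, Gsta3 and Abca6. All of these stood lower on both days than in the uninjured cells, at 0.852 to 13.5 CPM.

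Of 9 acute phase and antimicrobial genes measurable in the Pi16/Pcolce2 fibroblasts 6 were called higher (median log2 ratios 4.57 and 5.83), and Saa3 alone of them stood at or above other cells. Hp, at 1.19, 685 and 460 CPM, was below its level in neutrophils, 1390 and 1926 CPM. Over the compared types Hp had a median of 66.9 and 73.6 CPM and a highest level of 1091 and 574 CPM on days 9 and 12. Lcn2, at 0.793, 250 and 84.7 CPM, was far below its level in neutrophils, 4669 and 2755 CPM. The 7 neutrophil markers summed to 2.38, 4361 and 4565 CPM in these fibroblasts.

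Adamdec1/Bmp4 fibroblasts, which lie in the lamina propria and are marked by a metalloprotease, called 55 genes higher and 23 lower among 3980, or 1.38% and 0.578%. Their name gene read 2157, 1019 and 2163 CPM. They shared the Saa3 and Cxcl5 rise. Saa3 was not read in the uninjured cells and reached 7573 and 4980 CPM, at least 1424-fold and 937-fold higher, with one cell holding 50.8% of the UMIs in one library. Cxcl5 read 3.54, 1247 and 620 CPM, 352-fold and 175-fold higher.

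Proteases and cytokines led the other rises of Adamdec1/Bmp4 fibroblasts, and some of them rested on few cells. Of 12 matrix remodelling genes 3 were called higher, Mmp3, Mmp10 and the plasminogen activator Plau. Mmp3, a stromelysin, read 19.5, 547 and 78.0 CPM. Mmp10 read 15.9, 673 and 349 CPM, but one cell held 86.4% of its UMIs in one library. Without the top cell of each DSS library Mmp10 was 35.3-fold and 3.04-fold higher, so its call ends. Il11, a cytokine of the interleukin 6 family, read 14.2, 1213 and 166 CPM, and without the top cells it was 78.5-fold and 3.66-fold higher, so its call ends too. Il1rl1, the receptor of the alarmin interleukin 33, read 7.09, 780 and 142 CPM, 110-fold and 20.1-fold higher. Col7a1, the anchoring fibril collagen, was not read in uninjured cells and reached 108 and 122 CPM. Tnfsf11, known as RANKL, read 3.54, 140 and 119 CPM.

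Adamdec1/Bmp4 fibroblasts lost an abundant transcript. Gsn, the actin-severing protein gelsolin, read 18570, 2171 and 3482 CPM, 8.55 times lower (8.11 to 9.02) and 5.33 times lower. The clock output gene Dbp read 307, 27.6 and 37.3 CPM. Aspn, a matrix proteoglycan, read 613, 64.9 and 139 CPM, and the fatty acid carrier Cd36 60.3, 6.91 and 13.6 CPM. Without the uninjured cell with the most Cd36 the fall was 5.18 and 2.64 times, under 4-fold on day 12. Neutrophil markers summed to 10.6, 3955 and 3394 CPM in this type. In Pi16/Pcolce2 fibroblasts Gsn was also lower after DSS, at 25274, 3735 and 6374 CPM, but was not called. Dbp was called lower there too, at 409, 31.5 and 77.5 CPM.

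**Figure D3:**
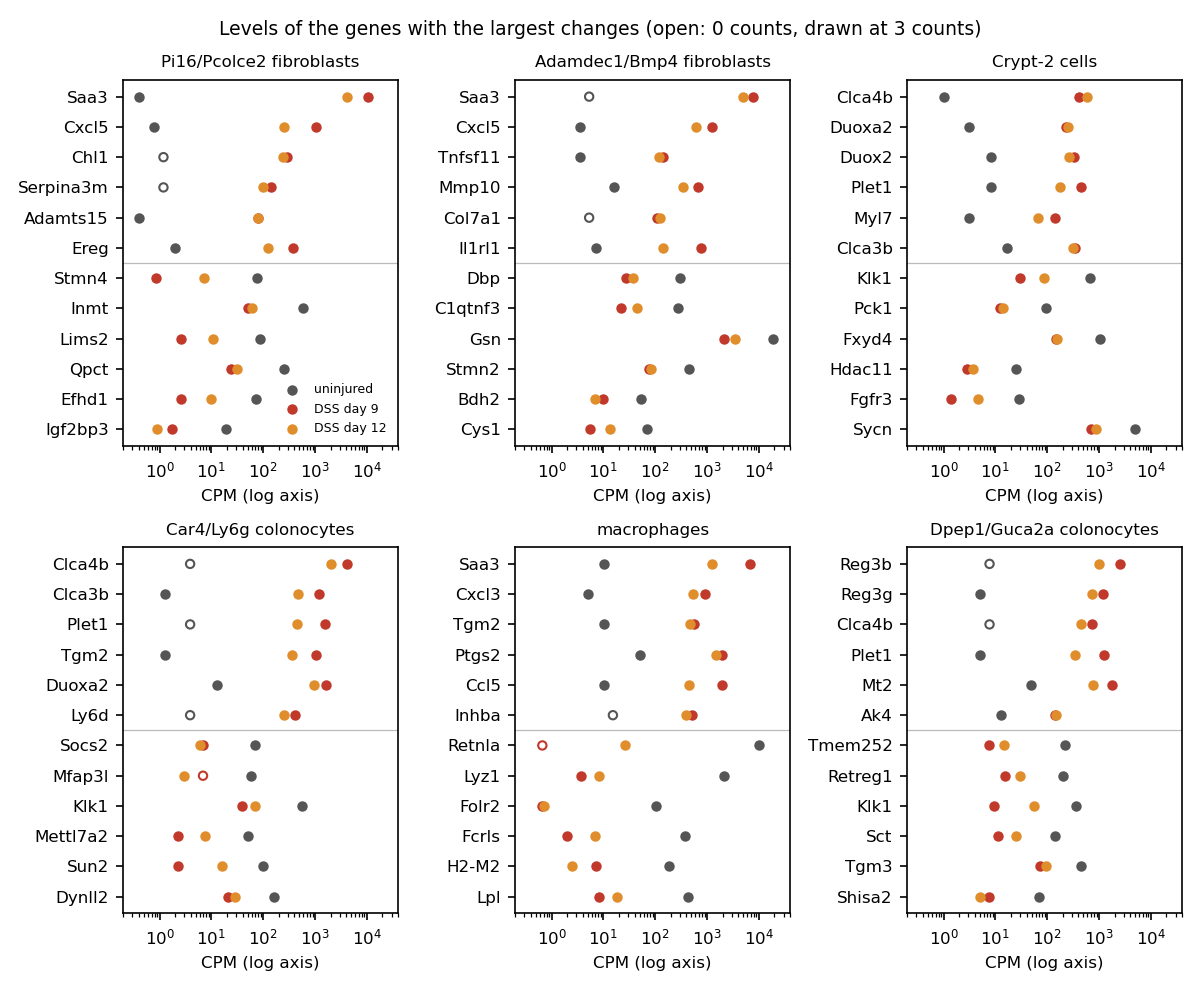
Level of the first named genes (CPM, log axis) in the uninjured, day 9 and day 12 libraries in 6 types, with risen genes above fallen ones; open points are 0 counts, drawn at the level of 3 counts. Saa3 in Pi16/Pcolce2 fibroblasts runs from 0.396 to 10511 and 4088 CPM, and Retnla in macrophages from 9993 to 0 and 26.3 CPM.

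In blood endothelial cells, with 39, 23 and 42 cells, 20 genes were called higher and 9 lower among 744, or 2.69% and 1.21%. All-gene medians were 0.12 and 0.13. Col15a1 and Col18a1, collagens of basement membranes, rose. Col15a1 read 169, 1257 and 1191 CPM, 7.42-fold (4.07 to 14.8) and 7.03-fold. Col18a1 read 42.4, 468 and 619 CPM, with 65.8% of its UMIs in one cell in one library. The basement membrane collagen Col4a2 did not pass 4-fold, at 551, 1134 and 1277 CPM. The leukocyte adhesion receptor Icam1 read 56.5, 567 and 343 CPM, with 52.2% of UMIs in one cell in one library. Il6 read 127, 739 and 686 CPM, but without the cell with the most Il6 in each DSS library it read 317 and 521 CPM, 2.49-fold and 4.10-fold higher, so its call ends. Of 7 endothelial activation genes Icam1 and Lrg1 were called (medians 0.30 and 0.82), and Lrg1 stood below other cells. Among the falls, the flavin monooxygenase Fmo2 read 438, 73.9 and 57.2 CPM and the heat shock gene Hspa1a, which has a near-identical copy, 875, 160 and 143 CPM. Without the uninjured cell with the most Hspa1a, it was 3.82 and 4.28 times lower, so its call ends as well. Neutrophil markers summed to 0, 3697 and 9063 CPM here.

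Clca4b, Duox2, Duoxa2 and Plet1 were called higher in 4 of 4 epithelial types, as was Ly6a. Clca4b is a member of the calcium-activated chloride channel regulator family, with near-identical neighbours Clca4a and Clca3b, so its counts are uncertain between copies. Duox2 makes hydrogen peroxide at the cell surface, Duoxa2 is its maturation factor, and Plet1 is a surface protein of progenitor cells. Clca4b lies on chromosome 3 from 144910921 to 144932529 on the minus strand. Duox2 and Duoxa2 are neighbours on chromosome 2, at 122279247 to 122298449 on the minus strand and 122298900 to 122302885 on the plus strand.

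Crypt-2 cells called 109 genes higher and 50 lower among 6187, or 1.76% and 0.808%. With mitochondrial counts in the denominator the calls were 129 and 32, so the higher share went from 68.6% to 80.1%. Mitochondrial genes took 28.3%, 13.9% and 15.0% of their counts, and the all-gene median was -0.17 and -0.08. Clca4b read 1.04 CPM from 1 UMI in uninjured cells, 408 on day 9 and 599 on day 12, ratios of 391 (70.0 to 15490) and 575 (103 to 22759). One cell held 47.2% of these UMIs in one library. Duox2 read 8.33, 332 and 269 CPM, 39.8-fold and 32.3-fold higher, and Duoxa2 3.13, 236 and 253 CPM. Plet1 read 8.33, 447 and 180 CPM.

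Reg3b, an antimicrobial lectin with the close paralogue Reg3g, read 35.4, 2882 and 492 CPM in Crypt-2 cells, 81.4-fold (58.1 to 118) and 13.9-fold (9.81 to 20.3) higher. Of 13 acute phase and antimicrobial genes 10 were called higher in Crypt-2 cells, with median log2 ratios of 5.10 and 3.32. Reg3b, Reg3g, Duox2 and Duoxa2 stood at or above other cells, while Saa3, Lcn2, Lrg1, Hp, Slpi and Nos2 stood below them. Clca3b read 16.7, 340 and 309 CPM. Smaller rises from counts of 0 were the retinol dehydrogenase Dhrs9 (43.3 and 47.0 CPM) and the protease Prss22 (56.1 and 42.4 CPM). The neutrophil marker sum was 6.25, 6368 and 2803 CPM.

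Falls of Crypt-2 cells took in secreted and ion transport genes. Sycn, syncollin, a secretory granule protein, read 4906, 710 and 876 CPM, 6.91 times lower (6.45 to 7.41) and 5.60 times lower (5.22 to 6.01). Fxyd4, a regulator of the sodium pump, read 1050, 147 and 154 CPM, 7.14 times lower on day 9 (6.14 to 8.33). The tissue kallikrein Klk1 read 658, 30.6 and 85.6 CPM and Pck1, of gluconeogenesis, 94.8, 12.1 and 13.8 CPM. Tgm3, a transglutaminase, read 828, 131 and 171 CPM. The goblet genes Zg16 and Clca1 were called lower, 2 of 7 mucus genes, at 291, 52.6 and 68.1 CPM for Zg16. Zg16 stood below other cells in the uninjured library. In Crypt-2 cells markers of other types were lower as well: 8 fibroblast markers summed to 717, 124 and 187 CPM. Enteroendocrine markers summed to 217, 5.68 and 12.9 CPM.

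Crypt-2 cells showed few division transcripts in any library. Mki67 read 9.38, 3.55 and 0.921 CPM and Top2a 14.6, 7.11 and 1.84 CPM. Lgr5, the crypt stem cell receptor, was at 0, 0.711 and 0.921 CPM. Cd44, a hyaluronan receptor of the crypt base, was called higher, at 6.25, 65.4 and 48.8 CPM. Ly6a was called too, at 326, 2090 and 2594 CPM, the only 1 of 7 fetal-like repair genes to pass 4-fold here. Cd44 was read at higher levels in plasma cells, at 177, 183 and 193 CPM. Over all types 3 pairs of crypt stem cell or Wnt target gene and type were called higher, 2 of them below other cells.

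Car4/Ly6g colonocytes, surface absorptive cells that also carry Ly6g in the annotation, called 140 genes higher and 38 lower among 4556, or 3.07% and 0.834%. Ly6g read 1567, 2494 and 2180 CPM and Car4 6887, 3002 and 3150 CPM. The all-gene median was -0.45 and -0.20, and with a TMM scaling the calls were 159 and 16, a higher share of 90.9% against 78.7%. Clca4b was not read in 135 uninjured cells and reached 4059 and 2057 CPM, at least 1043-fold and 529-fold higher. Clca3b read 1.30, 1186 and 479 CPM and Plet1 0, 1538 and 440 CPM. Tgm2, a tissue transglutaminase, read 1.30, 1057 and 360 CPM. Duoxa2 read 13, 1634 and 949 CPM, 126-fold and 73.2-fold higher. The neutrophil marker sum was the highest of the types on day 9, at 2.59, 13374 and 9497 CPM.

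Many defence genes were called in Car4/Ly6g colonocytes, though most of them stood below other cells. Of 10 acute phase and antimicrobial genes 9 were called higher (medians 5.82 and 4.32), and Nos2, Duox2, Duoxa2 and Pglyrp1 of those stood at or above other cells. Nos2, the inducible nitric oxide synthase, read 1.30, 671 and 201 CPM. Of 11 interferon response genes 9 were called higher (medians 3.41 and 3.38). Ido1, which breaks down tryptophan, read 0, 50.6 and 283 CPM. Igtp, an immunity GTPase, read 0, 101 and 67.0 CPM, and Gbp2, a guanylate-binding protein, 23.3, 356 and 530 CPM. Ifit1, Igtp, Ido1 and Zbp1 stood at or above other cells, while Isg15, Gbp2, Gbp7 and Cxcl10 stood below them. Of 6 chemoattractants 6 were called, but Cxcl5 alone, at 13, 1064 and 164 CPM, stood at or above other cells. Cxcl2, at 3.89, 1193 and 714 CPM, stood below neutrophils at 33343 and 18527 CPM.

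Repair-associated genes of Car4/Ly6g colonocytes moved in part. Ly6a read 648, 5140 and 4394 CPM and the keratin Krt7 33.7, 391 and 189 CPM, 2 of 7 fetal-like repair genes. Ephb2, a crypt guidance receptor, read 2.59, 78.2 and 35.7 CPM from 2 uninjured UMIs. Carbonic anhydrase Car2 was called lower, at 919, 143 and 183 CPM, 1 of 12 transport genes, which had median log2 ratios of -1.46 and -1.11. Socs2, a brake on cytokine signalling, read 68.7, 6.90 and 5.95 CPM and Klk1 567, 39.1 and 69.9 CPM. Lower calls of this type were uneven between days, 326 of 4614 genes on day 9 (7.07%) and 67 of 4700 on day 12 (1.43%).

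Car4 colonocytes called 26 genes higher and 6 lower among 2347, or 1.11% and 0.256%, with all-gene medians of -0.36 and -0.22. Mitochondrial genes took 58.5%, 50.8% and 53.3% of their counts. Clca4b read 6.46, 2252 and 1177 CPM from 2 uninjured UMIs. Duoxa2 read 38.7, 1361 and 1378 CPM, 35.1-fold and 35.6-fold higher, and Duox2 71.0, 1409 and 1675 CPM. Pglyrp1, a peptidoglycan recognition protein, read 484, 4585 and 4293 CPM. Fabp2, the intestinal fatty acid-binding protein, fell from 1343 to 211 and 223 CPM. The gene Car4 read 4428, 5508 and 3275 CPM and was not called. Neutrophil markers summed to 29.0, 10660 and 9815 CPM in these cells.

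Dpep1/Guca2a colonocytes called 41 genes higher and 14 lower among 2876, or 1.43% and 0.487%. Guca2a, the guanylin precursor, read 21432, 11279 and 11251 CPM and was not called. Reg3b was not read in uninjured cells and reached 2575 and 1005 CPM, at least 334-fold and 130-fold higher. Reg3g read 5.14, 1169 and 732 CPM, with 63.3% of its UMIs in one cell in one library. Of 8 acute phase genes 7 were called higher (medians 3.06 and 3.35), and Hp and Slpi of those stood below other cells. Mt2, a metallothionein, read 48.9, 1799 and 781 CPM, with 54.1% of its UMIs in one cell in one library. Ly6a and Il1rn were called too, Ly6a at 177, 1503 and 1299 CPM. Il1rn, unlike Ly6a, did not stand at or above other cells in both DSS libraries. Klk1 fell from 360 to 9.43 and 54.7 CPM and the membrane protein Tmem252 from 219 to 7.54 and 14.9 CPM. The neutrophil marker sum was 0, 3642 and 9166 CPM.

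Mitochondrial fuel use genes showed no call. Over all 11 types, 0 of 77 measurable pairs of mitochondrial fuel gene and type passed 4-fold on both days, and 41 of these pairs were in epithelial types. Nor did any of 112 pairs for protein folding in the endoplasmic reticulum. Over all genes 1.88% of the 39345 measurable pairs passed higher and 0.747% passed lower. At these rates few calls fall in lists of this size, so the counts of 0 are not read as a result about them. Acute phase and antimicrobial genes passed higher in 51 of 76 pairs, of which 29 stood below other cells. The interferon response passed in 25 of 68 pairs, 14 of them below other cells, and fetal-like repair in 12 of 55, 4 of them below. Colonocyte transport genes passed lower in 10 of 80 pairs, of which 1 was in an epithelial type and 9 were in other types.

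**Figure D4:**
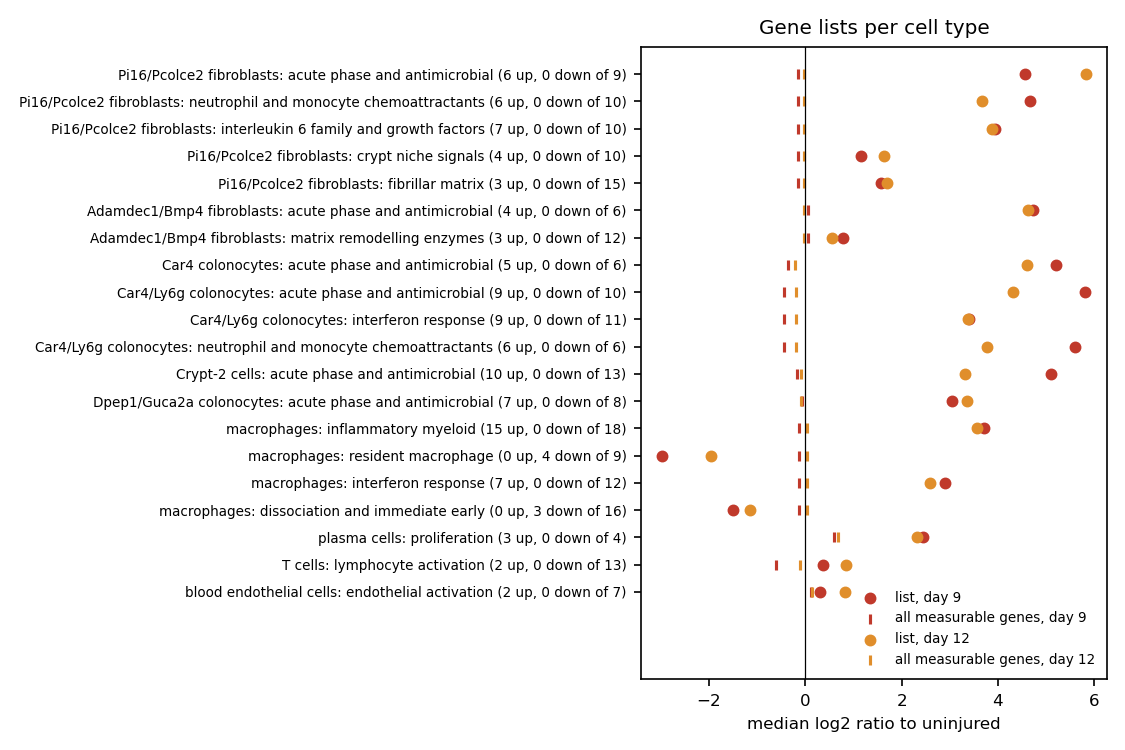
Median log2 ratio to the uninjured library on days 9 and 12 for each gene list in the types where it is described, with ticks for the median of all measurable genes of that type. Acute phase lists lie at 3.06 to 5.83, and the resident macrophage list at -2.97 and -1.97.

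Macrophages called 127 genes higher and 82 lower among 5537, or 2.29% and 1.48%, with all-gene medians of -0.14 and 0.03. With a TMM scaling the calls were 174 and 56, a higher share of 75.7% against 60.8%. The uninjured library held 63 of these cells against 1453 and 985 after DSS. Of the inflammatory myeloid genes 15 of 18 were called higher, and of the resident macrophage genes 4 of 9 were called lower. Csf1r, the receptor that macrophages depend on, read 683, 353 and 428 CPM, and Ly6c2, a marker of young monocyte-derived cells, 30.6, 393 and 324 CPM. The neutrophil marker sum was 143, 8295 and 10100 CPM, and 8 macrophage markers summed to 22008, 5957 and 7403 CPM. Whether the ratios come from cells that changed or from another mix of monocytes and macrophages under this name was not tested.

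Of 18 inflammatory myeloid genes 15 were called higher in macrophages (medians 3.71 and 3.56). All but S100a8, S100a9 and Trem1 of those stood at or above other cells. Saa3 read 10.2, 6627 and 1262 CPM from 2 uninjured UMIs. The matrix glycoprotein Thbs1 read 117, 2584 and 2372 CPM, 22.1-fold (14.7 to 34.8) and 20.2-fold (13.5 to 32.0). Chil3, a chitinase-like protein, read 30.6, 989 and 624 CPM. Arg1, arginase, was not read in uninjured cells and reached 157 and 120 CPM, at least 10.3-fold and 7.87-fold higher. The monocyte gene Plac8 read 443, 5933 and 3982 CPM.

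Macrophages also held higher levels of signalling genes. Ptgs2, the inducible cyclooxygenase, read 50.9, 1944 and 1499 CPM, with neutrophils at 1692 and 1041 CPM. Cxcl3 read 5.09, 913 and 530 CPM, below neutrophils at 1934 and 1209 CPM. Inhba, an activin subunit, was not read in uninjured cells and reached 515 and 399 CPM. The chemokine Ccl5 read 10.2, 1941 and 447 CPM. Of 12 interferon response genes 7 were called higher (medians 2.91 and 2.60). Cxcl9, a chemokine for T cells, was at 0, 627 and 341 CPM, at least 41.0-fold and 22.4-fold higher.

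The 4 resident macrophage genes called lower were C1qa, C1qb, Folr2 and Gas6, and the list of 9 had median log2 ratios of -2.97 and -1.97. C1qa, a chain of complement C1q, read 3224, 348 and 789 CPM, 9.26 and 4.08 times lower, and C1qb encodes another chain. Folr2, a folate receptor of tissue macrophages, read 102, 0.664 and 0.701 CPM. Lpl, lipoprotein lipase, read 423, 8.19 and 18.2 CPM, and Fcrls 377, 1.99 and 7.01 CPM. The growth arrest ligand Gas6 read 102, 3.54 and 8.76 CPM.

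The deepest fall of macrophages was in Retnla, a resistin-like molecule of alternatively activated cells, at 9993, 0 and 26.3 CPM, but few cells carried it. Of 63 uninjured macrophages 19 had a UMI, and 3 cells held 72.4% of 1962 UMIs. This look at single cells was chosen after the values were seen. Lyz1, the Paneth-type lysozyme, read 2129, 3.76 and 8.06 CPM, and 3 cells held 68.2% of its 418 uninjured UMIs. Of 16 immediate early genes 3 were called lower in macrophages, with Jun at 672, 120 and 149 CPM and Egr1 at 407, 49.8 and 78.5 CPM. Lower calls were again more numerous on day 9, 248 of 5698 genes (4.35%), than on day 12, 93 of 5712 (1.63%).

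T cells, 37, 333 and 253 in number, called 12 genes higher and 10 lower among 2805, or 0.428% and 0.357%, with all-gene medians of -0.60 and -0.11. With a TMM scaling the calls were 32 and 2, a higher share of 94.1% against 54.5%. Il17a, the cytokine interleukin 17A, was read in 0 of 37 uninjured T cells, and stood at 1508 and 1770 CPM after DSS, at least 23.4-fold and 27.5-fold higher. It was read in 34 of 333 day 9 cells (10.2%) and 42 of 253 day 12 cells (16.6%). With each cell thinned to 800 UMIs the shares were 10.7% (7.44 to 14.8) and 14.1% (9.68 to 19.7). The upper limit for the 0 of 25 uninjured cells left was then 13.7%, inside both intervals. B cells, which should lack it, held it in 1.11% and 0 of cells, at median depths of 1361 and 1091.5 UMIs against 2274 and 1657 UMIs in T cells.

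Trdc, the constant segment of the gamma delta receptor, was read in 24 of 34 and 25 of 42 cells with Il17a, and in 21 of 299 and 14 of 211 T cells without it. This pairing was looked at after the values were seen. Gzma, a granzyme of cytotoxic lymphocytes, read 0, 1331 and 968 CPM, at least 20.7-fold and 15.1-fold higher, in 75 and 30 cells. These were 22.5% (18.1 to 27.4) and 11.9% (8.15 to 16.5) of T cells. The exact upper limit for 0 of 37 uninjured cells, 9.49%, lies inside the day 12 interval. Nkg7, a granule protein, was read in 63 of 75 Gzma cells on day 9 and 17 of 30 on day 12, against 101 of 258 and 57 of 223 of the rest. The T cell gene Cd3e was read in 25 of 75 and 13 of 30 Gzma cells, against 124 of 258 and 83 of 223 of the rest. Trac, a T cell receptor segment, was read in 24 of 75 and 14 of 30, against 125 of 258 and 94 of 223. Whether all cells with Gzma were T cells was not tested. Ly6a read 214, 1109 and 1133 CPM in T cells. The inhibitory receptor Pdcd1 fell from 257 to 44.8 and 61.9 CPM, but 1 cell held 83.3% of the uninjured UMIs, and without it the uninjured level was 46.1 CPM. Of 13 lymphocyte activation genes 2 were called higher (medians 0.36 and 0.84). In T cells neutrophil markers summed to 172, 7745 and 4904 CPM.

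Plasma cells, the antibody secretors, called 34 genes higher and 15 lower among 1232, or 2.76% and 1.22%. Their all-gene median was 0.59 and 0.68, so ratios are to be read against that shift. Of 4 measurable proliferation genes Mki67, Top2a and Ube2c were called higher, with medians of 2.45 and 2.31, or 1.86 and 1.63 relative to all genes. Top2a, a topoisomerase of dividing cells, read 18.5, 104 and 115 CPM, in 4, 8 and 14 cells. Mki67 read 15.8, 84.1 and 77.1 CPM. Ube2c was not read in uninjured cells and reached 89.9 and 72.1 CPM, with 54.8% of its UMIs in one cell in one library. The adhesion molecule Cd2 fell from 127 to 8.70 and 24.6 CPM. Jchain, the antibody joining chain, read 70413, 54725 and 48195 CPM. Neutrophil markers summed to 2.64, 3253 and 3255 CPM.

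B cells called 7 genes higher and 3 lower among 1732, or 0.404% and 0.173%, and with a TMM scaling 18 and 1, a higher share of 94.7% against 70%. None of the 10 called genes stood at or above other cells. Those higher were S100a8, S100a9, Il1b, Retnlg, Wfdc17, Cxcl2 and Ifitm1, and those lower Gsn, Car1 and Guca2a, all named after their values were seen. S100a8 read 16.5, 2795 and 3568 CPM in B cells, and the neutrophil marker sum 16.5, 5287 and 6266 CPM. The B cell gene Ms4a1 read 857, 704 and 892 CPM.

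A few genes were called in opposite directions in 2 types. Gas6 rose in Pi16/Pcolce2 fibroblasts, at 66.2, 441 and 711 CPM, and fell in macrophages. Plau rose in Adamdec1/Bmp4 fibroblasts, at 14.2, 218 and 122 CPM, and fell in macrophages, at 81.5, 6.86 and 13.7 CPM. Ifit1, an interferon-induced protein, rose in Car4/Ly6g colonocytes, at 14.3, 140 and 177 CPM, and fell in blood endothelial cells, at 311, 61.6 and 28.6 CPM. The fall rested on one cell: without the uninjured endothelial cell with the most Ifit1 it was 2.60 times on day 9. Akr1b8, an aldehyde reductase, rose in Car4/Ly6g colonocytes and fell in Dpep1/Guca2a colonocytes.

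The remaining libraries give the same genes at other times. They come from batch A, frozen like the compared ones, on days 6, 16, 19 and 23 of DSS and from Il10-/- mice, which lack interleukin 10 and were about 10 months old against 2 months for all other groups, and from batch C, fresh cells on days 7, 11 and 18. Saa3 in Pi16/Pcolce2 fibroblasts read 8974 CPM on day 6, 855 on day 16, 2781 on day 19, 598 on day 23 and 898 in Il10-/-. Clca4b in Crypt-2 cells read 406 CPM on day 6, 145 on day 16, 173 on day 19, 196 on day 23 and 583 in Il10-/-. C1qa in macrophages read 360 CPM on day 6, 934, 1134 and 1742 on days 16, 19 and 23, and 1828 in Il10-/-. Il17a in T cells read 305 CPM on day 6, 455 on day 16, 376 on day 19, 722 on day 23 and 2076 in Il10-/-.

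The batches differed for some genes. Reg3b in Crypt-2 cells read 9180 CPM on day 6, 3182 on day 16 and 993 on day 23 in batch A. In batch C it read 7.91 on day 7, 0.0894 on day 11 and 1.80 on day 18, under the 35.4 CPM of the uninjured library. Saa3 in Pi16/Pcolce2 fibroblasts, by contrast, read 3510, 5751 and 738 CPM on those days of batch C. C1qa in macrophages read 222, 414 and 298 CPM on the same days. In batch A it read 360, 348 and 789 CPM on days 6, 9 and 12, and 934 and 1134 CPM on days 16 and 19. Batch and storage cannot be told apart there, and the days sampled differ between the batches.

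**Figure D5:**
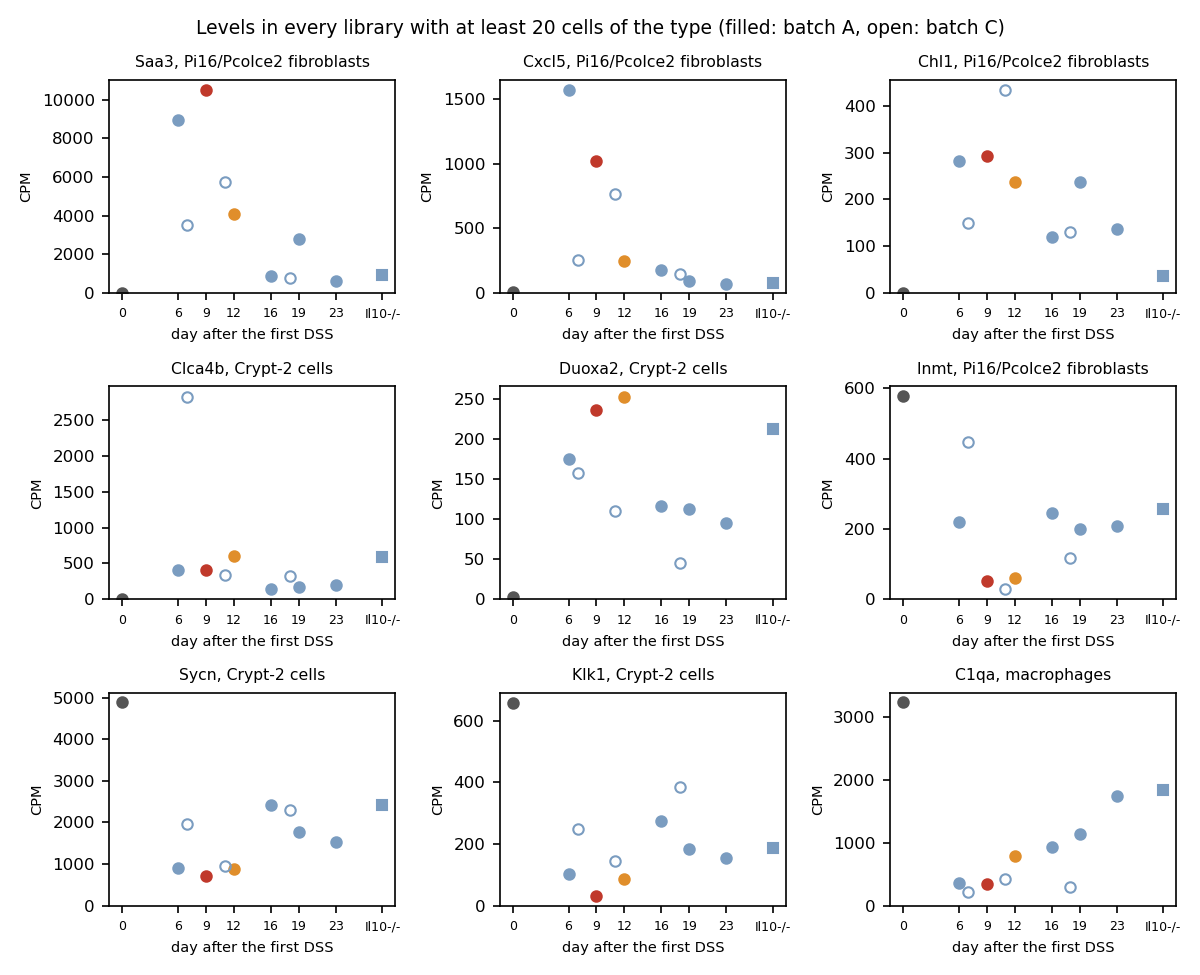
Level of 9 genes (CPM, linear axis) in every library with at least 20 cells of the type, by day after the first DSS. Filled points are batch A, open points batch C and squares Il10-/-. Saa3 in Pi16/Pcolce2 fibroblasts stays above the uninjured 0.396 CPM through day 23 (598 CPM). In batch A, C1qa in macrophages climbs from 348 CPM on day 9 to 1742 CPM on day 23. In batch C it reads 222, 414 and 298 CPM on days 7, 11 and 18.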

How the data were processed

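The authors deposited raw UMI counts for each cell. Cell Ranger 3.0.0 and the build mm10 are named in the submitters' processing notes. Transcript 3' ends were sequenced, per the labels' protocols. The library, cell type, batch, storage and number of pooled mice of each cell come from the authors' deposited cell table. The authors' filter on cells is not given in the sources used here. No doublet caller was run. Another 3 libraries with 12621 cells in that table matched no labelled sample and were not used.

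Counts were summed per library and type. Of 30406 gene rows, 597 placeholder rows and 13 mitochondrial genes were left out, and the rest (29796 genes) were scaled to CPM. A gene was measurable in a type with at least 20 counts in 1 of the compared libraries and a UMI in at least 5% of the type's cells in the higher library. It was called at 4-fold, with a count under 3 in the lower library set at 3. Folds written "at least" use that floor of 3 counts per library. Ratio intervals are exact conditional 95% intervals and share intervals exact Clopper-Pearson ones.

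The named genes were called alike, stood at or above other cells and were ranked by the ratio of the day with the smaller change, 10 per direction in the 4 types with most uninjured cells and 6 in the others. Mitochondrial, predicted and immune receptor segment genes were left out (141 pairs of gene and type, 120 genes). Also named were the most changed members of gene lists, the genes called in the most types and those with opposite calls. Genes named outside this rule, marker genes aside, were chosen after their values were seen. A few list members are not reported here. The comparison, the gene lists and the tests were chosen with earlier results of these data known. The steps were checked on simulated counts. Leaving out the top cell of a gene was added after the data were seen. The 8 other processing alternatives include a TMM scaling from edgeR 4.0.16 (R 4.3.3). Python 3.11.15, numpy 2.4.6, scipy 1.17.1 and pandas 2.3.3 were used. UMIs count molecules once, and the intervals and floors cover counting error only.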

Additional observations from a re-analysis of the deposited data

Results flagged for a closer look

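The share of neutrophils in the DSS libraries, 34.3% on day 9 and 38.6% on day 12, was singled out because this type lies outside the types compared and had no cell in the uninjured library.

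A further 4 genes were singled out because they passed 4-fold in opposite directions in 2 types on both days, and the difference between the types was not tested. Gas6 had a smaller log2 ratio of 2.74 in Pi16/Pcolce2 fibroblasts and -3.54 in macrophages. Plau had 3.11 in Adamdec1/Bmp4 fibroblasts and -2.58 in macrophages. Ifit1 had 3.30 in Car4/Ly6g colonocytes and -2.33 in blood endothelial cells, where it does not pass 4-fold on day 9 without 1 uninjured cell (2.60 times lower). Akr1b8 had 2.35 in Car4/Ly6g colonocytes, at 11.7, 161 and 59.5 CPM, and -2.03 in Dpep1/Guca2a colonocytes, at 123, 30.2 and 19.9 CPM. Each value is that of the day with the smaller change.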

How the results depend on the processing

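No paired analysis was possible because each group is 1 library and no test between groups was made. Of the 141 named pairs of gene and type, none reversed under an alternative. They were still called alike for 138 with CPM over all counts, 138 with TMM scaling, 117 with cells weighted equally and 89 with at least 50 counts. The number was 117 without the 5% of cells with the most UMIs, 104 without cells above the median mitochondrial share and 119 with a pseudocount of 10 CPM. With no filter on cells it was 141, which was fixed in advance because that setting leaves the ratios unchanged. The medians of the described gene lists kept their direction under each alternative run on them. Counts of called genes moved by over 1.5 times as follows. The causes were not tested, except that fewer genes are measurable at 50 counts.

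With at least 50 counts, higher calls over all types went from 739 to 454 and lower calls from 294 to 139. Higher calls were then 100 in Pi16/Pcolce2 fibroblasts, 12 in Car4 colonocytes, 61 in Crypt-2 cells, 27 in Adamdec1/Bmp4 fibroblasts, 68 in Car4/Ly6g colonocytes, 22 in Dpep1/Guca2a colonocytes, 5 in blood endothelial cells and 13 in plasma cells. Lower calls were 20 in Crypt-2 cells, 12 in Adamdec1/Bmp4 fibroblasts, 17 in Car4/Ly6g colonocytes, 7 in Dpep1/Guca2a colonocytes, 38 in macrophages, 0 in B cells, 2 in blood endothelial cells, 3 in plasma cells and 2 in T cells.

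With a pseudocount of 10 CPM, lower calls over all types were 146. Higher calls were 79 in Pi16/Pcolce2 fibroblasts, 50 in Crypt-2 cells, 35 in B cells and 131 in T cells. Lower calls were 14 in Pi16/Pcolce2 fibroblasts, 24 in Car4 colonocytes, 13 in Crypt-2 cells, 8 in Adamdec1/Bmp4 fibroblasts, 9 in Car4/Ly6g colonocytes, 43 in macrophages, 8 in plasma cells and 6 in T cells.

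Without cells above the median mitochondrial share, higher calls were 14 in Car4 colonocytes, 35 in Adamdec1/Bmp4 fibroblasts and 12 in blood endothelial cells, and lower calls 1 in B cells, 4 in plasma cells and 4 in T cells. With CPM over all counts, lower calls in Crypt-2 cells were 32. With cells weighted equally, lower calls were 11 in Adamdec1/Bmp4 fibroblasts, 22 in Dpep1/Guca2a colonocytes, 156 in macrophages, 24 in plasma cells and 20 in T cells, and higher calls 11 in B cells and 53 in plasma cells. With TMM scaling, lower calls were 16 in Car4/Ly6g colonocytes, 1 in B cells and 2 in T cells, and higher calls 18 in B cells and 32 in T cells. Without the cells with the most UMIs, lower calls were 23 in Car4/Ly6g colonocytes and 4 in blood endothelial cells, and higher calls 10 in blood endothelial cells and 22 in plasma cells.

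Shares of a compartment in place of all cells turned the direction of 12 of the 22 ratios of a day to the uninjured library, here for days 9 and 12, with the ratio over all cells in brackets. It was 1.07 and 2.12 for blood endothelial cells (0.234 and 0.478), 0.388 and 0.556 for Car4 colonocytes (0.0795 and 0.127), 0.830 and 1.58 for Car4/Ly6g colonocytes (0.170 and 0.361), 1.39 and 1.28 for Crypt-2 cells (0.286 and 0.291) and 1.89 and 0.896 for Dpep1/Guca2a colonocytes (0.387 and 0.205). It was 0.269 and 0.366 for B cells (2.02 and 2.71), 1.21 and 0.937 for macrophages (9.13 and 6.94), 0.0341 and 0.105 for plasma cells (0.257 and 0.779) and 0.474 and 0.410 for T cells (3.56 and 3.03). It was 1.62 and 0.776 for Adamdec1/Bmp4 fibroblasts (0.354 and 0.175) and 0.715 and 0.863 for Pi16/Pcolce2 fibroblasts (0.157 and 0.195).

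In an alternative chosen after seeing the data, the cell with the most UMIs of a gene was left out of the libraries where that gene was high, and 124 of the 141 named pairs still passed 4-fold on both days. Depth limits the smallest types: blood endothelial cells had 744 measurable genes and plasma cells 1232, and a change in a gene with fewer counts was not detectable there.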

Other observations

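Calls of a single day were uneven in some types, among genes measurable on both days. In Car4/Ly6g colonocytes 326 such genes were called lower on day 9 and 67 on day 12, and in T cells 33 and 11. Higher calls in plasma cells were 42 on each day.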
